A study of Arabidopsis thaliana with 11 samples.

Results

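PUB23 is a plant U-box ubiquitin ligase of Arabidopsis thaliana (locus AT2G35930, chromosome 2). It was followed here through the 1 probe set that the platform annotation names for PUB23 alone, out of 22810 probe sets on the Affymetrix ATH1 array, of which 21886 were tested. The 11 arrays held RNA from whole etiolated (dark-grown) seedlings 4 days old. The groups were arf2 on 0.5 µM brassinazole (BRZ, 2 arrays), arf2 on mock medium (3 arrays), Col on 0.5 µM BRZ (3 arrays) and Col on mock medium (3 arrays). BRZ inhibits brassinosteroid synthesis. The arf2 seedlings are mutant for the auxin response factor ARF2, a transcription factor known mostly as a repressor, and Col is their wild type. The allele is not given in the sources used here. Replicates were stated to be independent biological ones, and the submitters left out 1 array of arf2 on BRZ after quality control. PUB23 was selected on its levels on these arrays, which were known when it was picked, so its own levels and changes are given as a description, with no test.

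Ubiquitin ligases choose the proteins to which ubiquitin is attached, and many proteins marked in this way are then broken down by the 26S proteasome. In the plant U-box (PUB) family, the U-box is the domain that docks the ubiquitin-conjugating enzyme. PUB23 is known to act with its close relatives PUB22 and PUB24 as a brake on immune signalling set off by microbial patterns. PUB22 and PUB23 are also known to dampen the response to drought, and to ubiquitinate RPN12a, a subunit of the proteasome's regulatory particle.

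The arrays were not equal throughout, and the following bears on all results. Medians over the tested probe sets ran between log2 values of 5.93 and 6.28, and Col mock arrays 1 and 2 were the lowest, at 5.96 and 5.93. Over probe sets, the departures of arf2 mock array 3 and Col mock array 2 from their own group means correlated at 0.60, the highest among pairs of arrays drawn from different groups. Between the actin controls for opposite ends of the transcript, the log2 difference was 4.56 on Col mock array 2. On the other arrays it was 3.53 to 4.00. The same difference for GAPDH (0.73) and ubiquitin (1.31) on Col mock array 2 lay within the range of the others. What part this had was not tested. The array also carries a 25S ribosomal RNA control, whose intensity was 33.6 and 63.9 in arf2 on BRZ, 173 to 263 in arf2 on mock, 85.3 to 131 in Col on BRZ and 59.7 to 95.9 in Col on mock. It was thus highest in the group in which PUB23 was highest, and its part in the result was not tested. In whole seedlings, fewer cells of a type and less transcript per cell cannot be told apart.

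PUB23 stood high in 1 group of the 4, arf2 on mock. Its intensity was 82.3 on both arf2 BRZ arrays. It was 209, 190.4 and 181 on the arf2 mock arrays. Col arrays read 65.7, 75.6 and 65.2 on BRZ, and 69.5, 96.1 and 80.2 on mock. The arf2 mock arrays lay above every other array, and the lowest of them exceeded the highest of the other 8 by 0.91 on the log2 scale. For 1248 of the 21886 tested probe sets the arf2 mock arrays all lay above the rest, and the PUB23 gap was number 62 in size. The equal readings on both arf2 BRZ arrays are not peculiar to PUB23, because 2.21% of tested probe sets had the same value on this pair, against 0.512% to 2.80% over all 55 pairs of arrays.

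On the log2 scale the PUB23 means were 6.36 for arf2 on BRZ (n = 2, identical values), 7.59 ± 0.10 for arf2 on mock (SD, n = 3), 6.10 ± 0.12 for Col on BRZ (SD, n = 3) and 6.34 ± 0.23 for Col on mock (SD, n = 3). In order of level, arf2 on mock was highest and Col on BRZ lowest, with arf2 on BRZ and Col on mock between them. Among neighbours in this order, only arf2 on mock was free of overlap with the next group. The arf2 BRZ level lay inside the Col mock range, and the Col BRZ and Col mock ranges overlapped. Both arf2 BRZ arrays did lie above all 3 Col BRZ arrays.

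**Figure D1:**
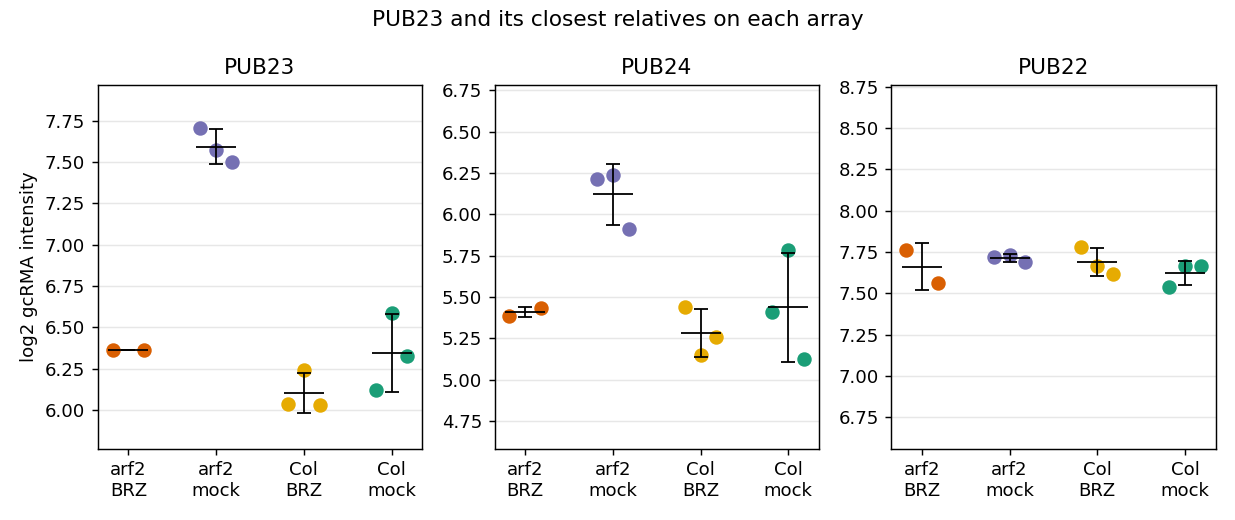
Log2 gcRMA intensity of PUB23, PUB24 and PUB22 (vertical axes, each panel on its own range of equal span) on every array of the 4 groups; points are arrays, horizontal lines are group means and bars are SD. PUB23 on the arf2 mock arrays lies between 7.50 and 7.70 and above every other array, PUB24 shows a smaller step in the same group, and the PUB22 points of all groups lie close together.

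The first comparison asked what the arf2 mutation changes on mock medium. PUB23 was 2.37-fold higher in arf2 than in Col, a log2 change of 1.25 ± 0.12 (SE), and the arrays did not overlap. This was the 127th highest change of the 21886 tested, among which 5.38% were called higher and 1.97% lower (limma, adjusted p under 0.05). Over 19 alternatives the log2 change lay between 1.08 (after quantile normalization) and 1.42 (without arf2 mock array 3 and Col mock array 2).

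BRZ in the arf2 mutant was the second comparison. PUB23 was 2.34-fold lower on BRZ than on mock, a log2 change of -1.23 ± 0.14 (SE), again with no overlap. It ranked 142nd from the lowest, and 2.89% of tested probe sets were called lower and 2.92% higher. In Col, the PUB23 intensities on BRZ and mock overlapped, and the log2 change was -0.24 ± 0.12 (SE), or 1.18-fold lower on BRZ, at place 2479 from the lowest. There, 2.74% of tested probe sets were called lower and 6.2% higher. This small change in Col depended on scaling and on 1 array: it was -0.42 with array medians made equal, -0.43 after quantile normalization and -0.12 without Col mock array 2.

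The remaining comparisons set these effects against each other. On BRZ, PUB23 was 1.20-fold higher in arf2 than in Col, a log2 change of 0.26 ± 0.14 (SE), ranked 1587th from the highest, where 0.297% of tested probe sets were called higher and 0.32% lower. The interaction (the arf2 change with BRZ less the Col change) was -0.99 ± 0.18 (SE) for PUB23. It was the 184th lowest of all tested, with 0.589% called lower and 0.251% higher. The comparisons share arrays: the arf2 mock arrays enter both changes in which PUB23 was far from 0 and also the interaction.

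PUB24, the third ligase of the immune trio, was measured on the same arrays. Its intensity was 41.9 and 43.2 in arf2 on BRZ, and 74.2, 75.7 and 60.2 in arf2 on mock. The Col values were 43.4, 35.5 and 38.3 on BRZ, and 42.4, 55.1 and 34.9 on mock. As for PUB23, all 3 arf2 mock arrays lay above all others, and Col mock array 2 was the highest of the Col arrays. PUB24 was higher in arf2 than in Col on mock by 0.68 ± 0.16 (log2, SE; limma adjusted p = 0.0214), and lower on BRZ than on mock in arf2 (log2 change -0.71 ± 0.18, adjusted p = 0.0359). The change with BRZ in Col was -0.16 ± 0.16 (adjusted p = 0.537), and the interaction of -0.56 ± 0.24 was not called (adjusted p = 0.491).

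These PUB24 calls were not firm, and both rest on the same arf2 mock arrays. The genotype call did not hold with equal array medians (adjusted p = 0.114), after quantile normalization (0.0957), with only the compared groups in the model (0.112), and without Col mock array 1 (0.0679), arf2 mock array 1 (0.0931) or arf2 mock array 2 (0.0889). In arf2 the BRZ call went with the removal of arf2 BRZ array 1 (adjusted p = 0.215) or 2 (0.172), arf2 mock array 1 (0.117) or 2 (0.104), and Col BRZ array 1 (0.0505), 2 (0.0517) or 3 (0.0624). Without arf2 mock array 3 and Col mock array 2 the calls were kept, at adjusted p = 0.00101 for genotype and 0.00254 for BRZ.

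PUB22, which shares known targets with PUB23, was not called in any of the 5 comparisons. Its intensity was 217 and 189 in arf2 on BRZ, and 211, 213 and 206 in arf2 on mock. In Col it was 219.9, 203 and 196 on BRZ, and 186, 203 and 203 on mock. The log2 change was 0.09 ± 0.09 between arf2 and Col on mock (adjusted p = 0.641), and -0.05 ± 0.10 between BRZ and mock in arf2 (adjusted p = 0.849). Whether PUB23 and PUB22 differed in their response was not tested.

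Among the other U-box genes, 39 were looked up, and 20 had a tested probe set that the platform annotation names for that gene alone. On mock, 2 of the 20 were higher in arf2 than in Col, 0 were lower and 18 were not called, against 7.35% called over all tested probe sets, 5.38% higher and 1.97% lower. The 2 were PUB24 and AT5G67340, a U-box locus with no symbol in the gene table. The median log2 change of the 20 was 0.13, against 0.05 over all. Members that were not called ran between -0.27 for AT1G23030 and 0.47 for AT1G67530. PUB25 and PUB26, ligases known to act on the immune kinase BIK1, had changes of -0.16 ± 0.19 and -0.08 ± 0.09 (SE).

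AT5G67340 had intensities of 32.3 and 29.6 in arf2 on BRZ, and 41.4, 38.0 and 41.7 in arf2 on mock. In Col it had 29.3, 28.1 and 30.7 on BRZ, and 25.5, 17.5 and 29.7 on mock. Its arf2 mock arrays lay above all others, with Col mock array 2 far below its group. It was higher in arf2 than in Col on mock by 0.77 ± 0.16 (log2, SE; limma adjusted p = 0.0123). The call was lost with only the compared groups in the model (adjusted p = 0.0925) and without arf2 mock array 1 (0.0545). Without arf2 mock array 3 and Col mock arrays 1 and 2, which leaves 1 Col mock array, the log2 change was 0.41. Its change with BRZ in arf2 was -0.38 ± 0.18 (adjusted p = 0.296).

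With BRZ in arf2, 2 of the 20 U-box genes fell, PUB24 and PUB19, 0 rose and 18 were not called, against 5.81% called over all tested probe sets. The median log2 change was -0.05, against 0.00 over all. With BRZ in Col, PUB19 alone fell, 0 rose and 19 were not called, against 8.94% called over all, and the median was 0.08 against 0.06. Neither the comparison of arf2 with Col on BRZ nor the interaction had a called member. Over all tested probe sets, 0.617% and 0.841% were called there. At an unadjusted p under 0.05 (limma) there were 0 and 5 of the 20. The share of all probe sets at that looser threshold was not counted.

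PUB19, known as a brake on abscisic acid and drought responses, had a different layout from PUB23. Its intensity was 167 and 164 in arf2 on BRZ, and 335, 305 and 334 in arf2 on mock. Col arrays read 134, 139 and 141 on BRZ, and 214, 301 and 260 on mock. The BRZ arrays lay below the mock arrays in both genotypes. The BRZ change was -0.97 ± 0.13 in arf2 (log2, SE; limma adjusted p = 0.000979) and -0.89 ± 0.12 in Col (adjusted p = 0.000781), and both calls held in all 22 alternatives. Their difference was -0.08 ± 0.17 (adjusted p = 0.927), and the arf2 change on mock was 0.34 ± 0.12 (adjusted p = 0.106).

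**Figure D2:**
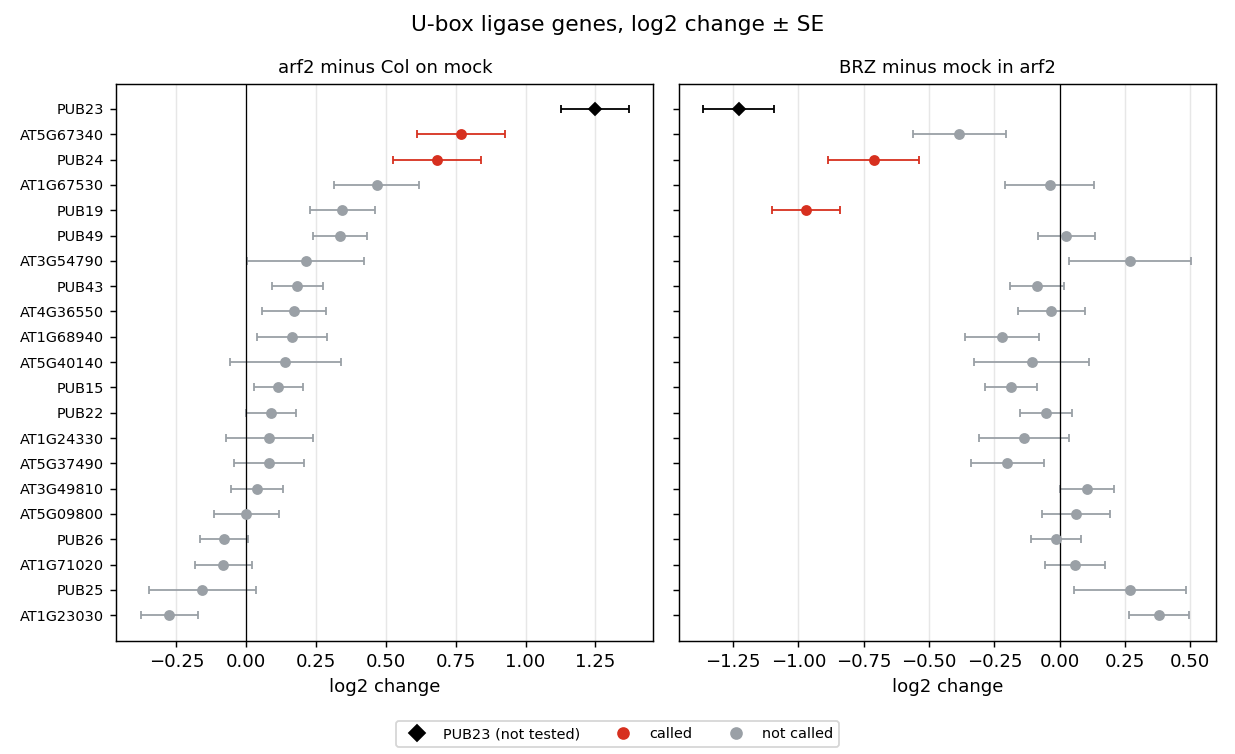
Log2 change with its SE (horizontal axes) of PUB23 and of the 20 other U-box genes with a tested probe set, for arf2 minus Col on mock (left) and BRZ minus mock in arf2 (right); colour marks the call at an adjusted p under 0.05, and PUB23 carries no test. PUB23 lies at 1.25 on the left and -1.23 on the right, while most of the family lies near 0.

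PUB23 transcript is known to rise with microbial patterns and other stresses, so genes of those settings were looked up next. The lists held early pattern-response genes and receptors, abscisic acid and water-deficit genes, genes induced rapidly by touch, wounding and other stresses, subunits of the 26S regulatory particle, and reported partners of PUB22, PUB23 or PUB24. Of 116 genes, 18 had a tested probe set that the platform annotation names for that gene alone, so the lists were covered only in small part. The annotation names no gene for 8730 probe sets, so a gene not found here may still be on the array. On mock, 3 of the 18 were higher in arf2 than in Col, 0 were lower and 15 were not called, against 5.38% called higher and 1.97% lower over all tested probe sets. The median log2 change of the 18 was 0.15, against 0.05 over all. With BRZ in arf2 the same 3 genes fell, 0 rose and 15 were not called, against 2.89% called lower and 2.92% higher over all, and the median was -0.05 against 0.00. These were STZ, LTI30 and WRKY53. Both comparisons use the same arf2 mock arrays, so the rises and the falls are not separate findings.

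STZ (also ZAT10) is a zinc-finger repressor induced rapidly by many stresses. Its intensity was 74.9 and 72.8 in arf2 on BRZ, and 188, 148 and 116 in arf2 on mock. In Col it was 57.3, 77.5 and 56.8 on BRZ, and 45.5, 85.7 and 64.1 on mock. STZ was higher in arf2 than in Col on mock by 1.23 ± 0.23 (log2, SE; limma adjusted p = 0.00667), and lower on BRZ than on mock in arf2 (log2 change -1.0 ± 0.25, adjusted p = 0.0414). The BRZ change in Col was 0.00 (adjusted p = 0.991), and the interaction was -1.0 ± 0.34 (adjusted p = 0.319). Of the 32 genes of the rapid-stress list, 3 were tested. Besides STZ these were CML37 and CML38, both dim. Neither was called for arf2 against Col on mock, with 0.42 ± 0.17 (log2, SE; limma adjusted p = 0.171) and 0.16 ± 0.17 (adjusted p = 0.665).

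The genotype call of STZ was lost in 1 of 22 alternatives, with only the compared groups in the model (adjusted p = 0.0541). The BRZ call in arf2 was lost in 8 of 22, among them without arf2 BRZ array 1 (adjusted p = 0.203) or 2 (0.217), arf2 mock array 1 (0.14) or 2 (0.094), and Col BRZ array 1 (0.0651) or 3 (0.0654). Of all list members tested, STZ followed PUB23 most closely, with r = 0.95 over the 11 arrays and r = 0.97 between their departures from the group means. PUB24 had r = 0.91 and 0.42 by the same measures. These are descriptions over arrays that share groups and scaling.

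LTI30, a dehydrin of the cold and water-deficit response, had a firm genotype call and a weak BRZ call. Its intensity was 803 and 682 in arf2 on BRZ, and 1178, 1128 and 1034 in arf2 on mock. The Col values were 715, 664 and 667 on BRZ, and 423, 569 and 604 on mock. LTI30 was higher in arf2 than in Col on mock by 1.08 ± 0.13 (log2, SE; limma adjusted p = 0.000433), a call kept in all 22 alternatives. The BRZ change in arf2 was -0.59 ± 0.15 (adjusted p = 0.0385). That call was lost without any 1 of the BRZ arrays or the arf2 mock arrays (adjusted p 0.0597 to 0.311). The change with BRZ in Col was 0.37 (adjusted p = 0.0988), opposite in sign to PUB23. On mock, the other 3 tested genes of the water-deficit list did not pass for arf2 against Col: COR47 had 0.18 ± 0.09 (log2, SE; adjusted p = 0.266), COR15A -0.30 ± 0.26 (adjusted p = 0.578) and COR15B -0.49 ± 0.22 (adjusted p = 0.229). The median over the 4 was -0.06. COR15A and COR15B were dim, and Col mock array 2 stood apart for both. Their Col mock intensities were 20.6, 46.7 and 20.1 for COR15A, and 26.4, 52.6 and 25.7 for COR15B. The arf2 mock arrays overlapped the Col mock arrays for COR15A and lay below them for COR15B. What part Col mock array 2 had in both changes and in the median was not tested.

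WRKY53, a transcription factor of defence and senescence, sat at the threshold. Its intensity was 30.7 and 31.3 in arf2 on BRZ, and 61.9, 49.3 and 37.3 in arf2 on mock. In Col it was 28.1, 32.9 and 27.7 on BRZ, and 32.4, 32.9 and 32.9 on mock. The log2 changes were 0.57 ± 0.15 for arf2 against Col on mock (limma adjusted p = 0.046) and -0.64 ± 0.17 for BRZ in arf2 (adjusted p = 0.0489). The first was lost in 15 of 21 alternatives, up to an adjusted p of 0.173, and the second in 14 of 21, up to 0.256. Without arf2 mock array 1, the brightest, the adjusted p was 0.163 and 0.129. Of the 28 genes of the pattern list, 4 were tested, and only WRKY53 was called for arf2 against Col on mock. EFR had -0.07 ± 0.14 (log2, SE; limma adjusted p = 0.848) and WRKY22 0.39 ± 0.17 (adjusted p = 0.21), and BIK1 is given below.

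Next came the proteasome machinery on which PUB23 is known to act. Of 25 regulatory-particle genes, 7 had a tested probe set, and on mock 0 were called between arf2 and Col (limma; 0 at an unadjusted p under 0.05), where 7.35% of all tested probe sets were called. Their changes lay between 0.01 and 0.17. With BRZ in arf2, 0 of 7 were called, where 5.81% of all were, and 1 had an unadjusted p under 0.05. With so few genes, counts of 0 are near these shares and set the list apart in neither comparison. RPN12a, the reported substrate of PUB22 and PUB23, changed by 0.17 ± 0.09 between arf2 and Col on mock (adjusted p = 0.323) and by 0.08 ± 0.10 with BRZ in arf2 (adjusted p = 0.752). BIK1, the kinase downstream of pattern receptors, had 0.20 ± 0.09 on mock (adjusted p = 0.272). These are transcript levels only, and protein was not measured.

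**Figure D3:**
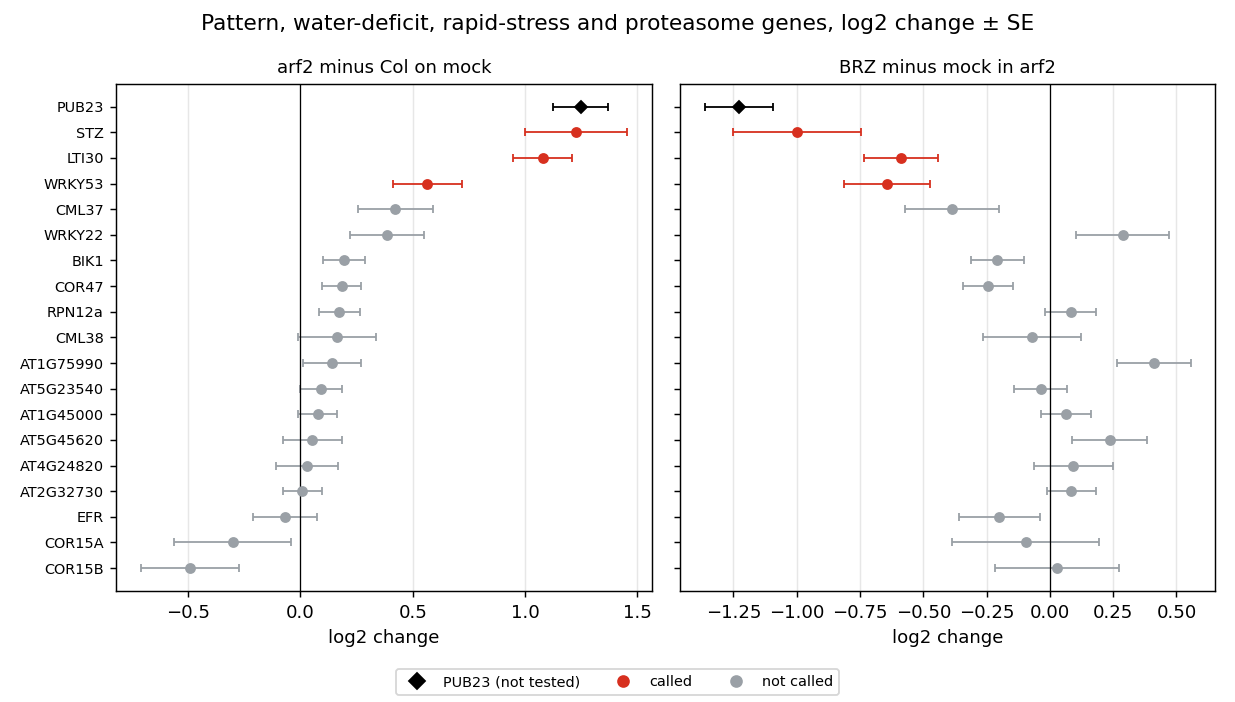
Log2 change with its SE (horizontal axes) of PUB23 and of the 18 tested genes of the pattern, water-deficit, rapid-stress, regulatory-particle and partner lists, for arf2 minus Col on mock (left) and BRZ minus mock in arf2 (right); colour marks the call at an adjusted p under 0.05. STZ, LTI30 and WRKY53 are called on both sides, with opposite signs, and the 7 regulatory-particle genes lie between 0.01 and 0.17 on the left. Both sides use the same arf2 mock arrays.

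Genes with the layout most like PUB23 were ranked by Pearson's correlation of log2 values over the 11 arrays, among 12852 other probe sets that name 1 gene. Of these, 133 had r above 0.9. The first 10 were AT1G19530 (r = 0.99), AT1G19020 (0.99), UGT73B1 (0.98), UGT84A3 (0.97), AT3G05640 (0.97), AT1G74360, AT1G33110 and AT1G23780 (0.97 each), AT5G38900 (0.96) and AT3G05950 (0.96). UGT73B1 and UGT84A3 are UDP-glycosyltransferases, enzymes that attach sugars to small molecules. The genes were picked for their likeness, so none was tested.

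UGT73B1 had 183 and 228 in arf2 on BRZ (intensity), and 476, 458 and 393 in arf2 on mock. In Col it had 180.3, 179.8 and 180.5 on BRZ, and 160, 212 and 219 on mock. As for PUB23, the arf2 mock arrays stood alone and the Col arrays on BRZ and mock overlapped. AT1G19020 had 390 and 404 in arf2 on BRZ, and 932, 853 and 878 in arf2 on mock. In Col it had 258, 319 and 288 on BRZ, and 309, 390 and 304 on mock.

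The sizes of the step differed among the 10, although the arf2 mock arrays lay above all others for each of them. The ratio of arf2 to Col on mock was 1.18-fold for AT1G23780 and 4.31-fold for AT3G05950, the extremes, against 2.37-fold for PUB23. AT3G05950 had intensities of 97.2 and 84.5 in arf2 on BRZ, and 341, 428 and 279 in arf2 on mock. In Col it had 45.8, 40.0 and 42.5 on BRZ, and 66.9, 90.8 and 84.1 on mock. Here the BRZ arrays of Col lay below the mock arrays, without overlap. The same held for UGT84A3 and AT3G05640 (log2 changes of -0.37 and -0.66). For the rest of the 10 they overlapped, as for PUB23.

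The likeness lay mainly between groups. Correlations of the 4 group means with PUB23 were 0.98 to 1.0 for the 10 genes, while those of departures from the group means were 0.27 to 0.83. Over the 8 arrays outside arf2 on mock they were 0.48 to 0.89, a measure chosen after seeing the data. Ranked by departures, or over those 8 arrays, 0 of the same 10 genes came first, by group means 1 did, and without arf2 mock array 3 and Col mock array 2 there were 5. With equal array medians, r was 0.80 for AT1G23780 and 0.96 to 0.99 for the other 9. The list of names thus depended on the measure.

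**Figure D4:**
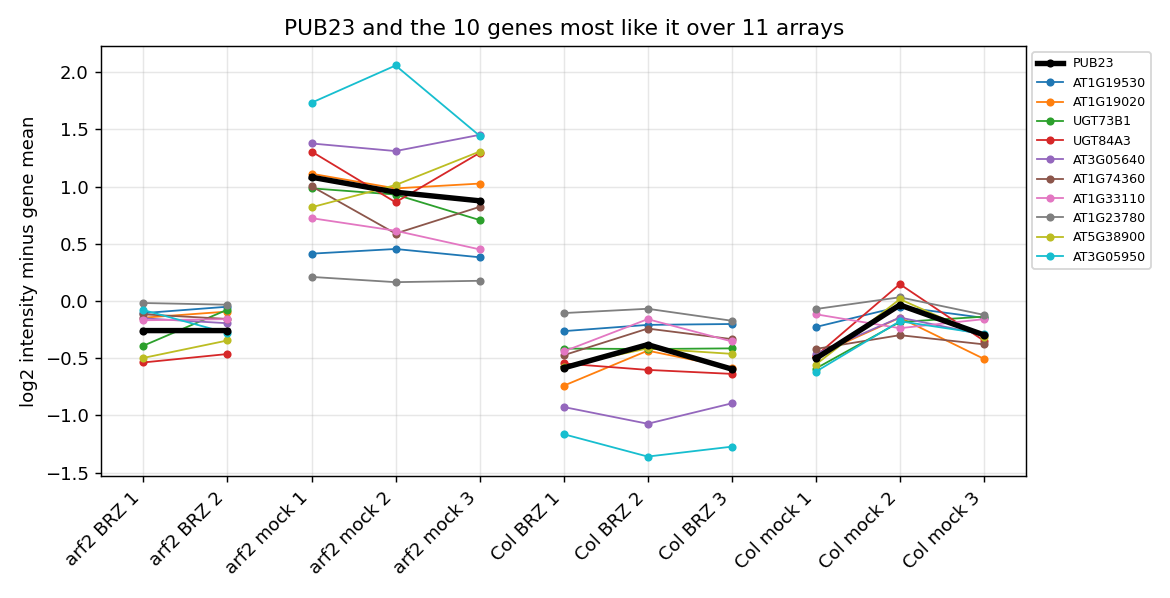
Log2 intensity minus each gene's mean over the 11 arrays (vertical axis) for PUB23 (thick black) and the 10 genes most correlated with it, by array (horizontal axis, 4 groups); lines join the arrays of a group only to mark the gene. All lie above 0 on the arf2 mock arrays, and the height of the step differs among genes, from 1.18-fold to 4.31-fold in arf2 over Col on mock.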

How the data were processed

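RNA of 11 samples was hybridised to ATH1 arrays. The deposited intensity values, per the series' design text, were estimated and normalized by the authors with gcRMA, after quality control with simpleaffy. The gcRMA version and the files' genome build are not given in the sources used here. The values are on a linear scale, so log2 was taken first.

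Control probe sets (64) were set aside, and 860 were dropped because fewer than 2 arrays read above 4 on the log2 scale. The other 21886 entered 1 linear model in limma 3.58.1 (R 4.3.3) with 4 group means and 1 moderated variance per probe set. Adjusted p-values are two-sided and Benjamini-Hochberg corrected over all 21886, and called means under 0.05. The fit was tested on simulated data. Arrays give no counts, so their number limits the precision.

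Probe sets were named through the supplied platform annotation, and loci through a RefSeq gene table of the TAIR10.1 assembly. Of the probe sets, 13513 name 1 gene, 503 several and 8730 none, and probe sets with several or none were not named. A gene was thus counted as having a tested probe set only where a probe set names it alone. In the gene table the gene AT2G35935 lies within the interval of PUB23, and whether the probe set reads it was not tested.

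PUB23, the lists and the comparisons were chosen with earlier results of these data known. Named genes were PUB23, the 10 most and 5 least correlated with it, the 2 nearest genes on either side with a tested probe set, and list members, at most 10 per list and comparison, called ones first. Alternatives changed scaling, filters, variance model, arrays used and a replicate block. Figures were drawn with matplotlib 3.10.9 (Python 3.11.15).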

Additional observations from a re-analysis of the deposited data

How the results depend on the processing

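The PUB23 changes kept their sign in every alternative run, and of 312 alternative values of the PUB23 changes and list counts 59 moved and 253 did not. A PUB23 change counted as moved when it differed from the reported one by the residual SD of 0.15 (log2) or more, and a count when it differed by more than 1.5 times. Leaving out 1 array at a time gave PUB23 changes of -1.28 to -1.17 for BRZ in arf2, -0.36 to -0.12 for BRZ in Col, 1.14 to 1.37 for arf2 against Col on mock, 0.22 to 0.33 on BRZ, and -1.11 to -0.87 for the interaction. Quantile normalization gave 1.08 for arf2 against Col on mock and -0.43 for BRZ in Col, and equal array medians gave -0.42 for BRZ in Col. Equal medians shifted the median of all probe sets by -0.18 for BRZ in Col, -0.14 for arf2 against Col on mock and 0.10 for the interaction. They also turned the calls over all probe sets to 626 higher and 1172 lower for BRZ in Col (1357 and 599 as reported), and to 620 higher and 781 lower for arf2 against Col on mock (1177 and 432). Without arf2 mock array 3 and Col mock array 2, PUB23 had 1.42 for arf2 against Col on mock and -1.15 for the interaction.

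Called U-box genes with 1 array left out numbered 1 to 3 for BRZ in arf2, 1 to 5 for BRZ in Col (5 without Col mock array 3), 0 to 4 for arf2 against Col on mock (0 without arf2 mock array 1, 4 without Col mock array 3), and 0 to 0 for the other comparisons. Array weights gave 4 for BRZ in arf2 and 2 for BRZ in Col, where a filter at a log2 value of 6 gave 3. For arf2 against Col on mock there were 0 with only the compared groups, 1 after quantile normalization and 1 without arf2 mock array 3 and Col mock arrays 1 and 2. The interaction had 1 without those 3 arrays or without arf2 mock array 3 and Col mock array 2.

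For the 18 genes of the other lists, leaving out 1 array gave 0 to 3 calls for BRZ in arf2, 1 to 6 for BRZ in Col (6 without Col mock array 3), 2 to 3 for arf2 against Col on mock, and 0 to 1 for both other comparisons. A floor at a log2 value of 4 gave 1 for BRZ in arf2. With only the compared groups there was 1 for BRZ in Col and 1 for arf2 against Col on mock, and without the 3 arrays 1 for BRZ in Col. For arf2 against Col on BRZ there was 1 under weights, a filter at 6, the floor, no filter, only the compared groups, trend and robust variances, and without 2 or 3 arrays. The interaction had 1 under weights, a filter at 6, quantile normalization, trend and robust variances and without 3 arrays, and 2 without 2 arrays.

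Replicate numbers gave no sign of pairing. Departures of same-numbered arrays from their group means correlated at -0.59 to 0.14, and those of differently numbered arrays at -0.44 to 0.60. Departures sum to 0 within a group, so these values are tied together and cannot settle whether the arrays were paired. With the replicate number as a block, PUB23 changed by -1.26 with BRZ in arf2, -0.24 with BRZ in Col, 1.25 and 0.23 for arf2 against Col on mock and on BRZ, and -1.02 for the interaction. The block left 0 of the 18 list genes called for BRZ in arf2. Only the compared groups could give no interaction. WRKY53 and AT5G67340 had no value under the filter at 6. The cause of these shifts was not tested. The small groups, with 2 arrays for arf2 on BRZ, limit every value.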

Other observations

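The opposite layout to PUB23, with the lowest level in arf2 on mock, was also found. Of 12852 probe sets that name 1 gene, 33 had r below -0.9 over the 11 arrays, and the 5 lowest were AT5G57785 (r = -0.97), AT4G19160, AT1G52100, AT5G52650 and SKU5 (-0.95), a glycoprotein known to affect the direction of root growth. AT5G57785 had intensities of 604 and 562 in arf2 on BRZ, and 80.3, 102 and 94.8 in arf2 on mock. In Col it had 897, 830 and 806 on BRZ, and 425, 427 and 442 on mock. The other 4 had smaller steps, down to 0.787 times the Col level in arf2 on mock. With equal array medians r was -0.97 for AT5G57785 and -0.82 to -0.76 for the other 4, and over the 8 arrays outside arf2 on mock the 5 had r of -0.79 to -0.22. These genes were picked by their correlation and were not tested.

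Genes beside PUB23 on chromosome 2 were looked up as well. In the TAIR10.1 gene table, the nearest before PUB23 with a tested probe set naming 1 gene were AT2G35920 (next before, r = 0.16 over the 11 arrays) and AT2G35910 (2 places before, r = -0.09). On the other side they were AT2G36030 (14 places after, r = 0.16) and AT2G36090 (20 places after, r = 0.13). The genes passed over had no such probe set. None of the 4 was called between arf2 and Col on mock (limma adjusted p 0.257 to 0.771) or with BRZ in arf2 (adjusted p 0.612 to 0.956), where 7.35% and 5.81% of all tested probe sets were called.

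With BRZ in Col, where PUB23 intensities overlapped, 1 of the 18 genes of the stress, proteasome and partner lists rose and 1 fell, close to the 6.2% called higher and 2.74% lower over all tested probe sets. WRKY22, a transcription factor of pattern-triggered defence, was higher on BRZ by 0.77 ± 0.17 (log2, SE; limma adjusted p = 0.0145). Its call was lost in 4 of 22 alternatives: without Col BRZ array 1 (adjusted p = 0.0575) or 2 (0.0661), with only the compared groups in the model (0.0536), and without arf2 mock array 3 and Col mock arrays 1 and 2 (0.133). COR47, a dehydrin, was lower (log2 change -0.55 ± 0.09, adjusted p = 0.00255), a call kept in all 22 alternatives. Between arf2 and Col on BRZ, and in the interaction, 0 of the 18 were called by limma. Over all tested probe sets, 0.617% and 0.841% were called there. At an unadjusted p under 0.05 (limma) there were 1 and 3 of the 18, a threshold at which the share of all probe sets was not counted.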
